A study of Mus musculus with 18 samples.

Results

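The type 2 cytokine locus of the mouse lies on chromosome 11 and holds the cytokine genes Il4, Il13 and Il5 together with Rad50 and Kif3a. The members were taken by symbol from the deposited tables and make up 5 of 23063 genes. They were chosen by their measured levels (RPKM) in the 6 groups of these libraries, so these levels are given as a description, with no test. Thymic epithelial cells were sorted by flow cytometry from digested, stroma-enriched thymi of mice 6 to 8 weeks old, and their total RNA was sequenced on a HiSeq 2000. Medullary cells of the hi gate (mTEChi) and of the lo gate (mTEClo) and cortical cells (cTEC) were each taken from Aire-/- mice (KO) and from wild type mice (WT), with 3 libraries in each of the 6 groups and 18 libraries in all. The strain label B6.129S2-Airetm1.1Doi/J, the line with a targeted Aire allele, stands on the KO and on the WT samples alike. The labels do not name the surface protein of the lo and hi gates. They also do not say whether the libraries of a group came from separate mice, so each spread and each p-value here measures the variation between these libraries, which may be technical.

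IL-4, IL-13 and IL-5 are the signature cytokines of type 2 immunity, made above all by T helper cells, innate lymphoid cells, mast cells and eosinophils. IL-4 and IL-13 share a receptor chain, IL-4R alpha, and act through STAT6, while IL-5 drives eosinophils. In T helper cells the 3 cytokine genes are switched on together by GATA3 from a control region that lies within Rad50, a gene for a DNA repair protein needed by all cells. Kif3a, which encodes a motor subunit of the kinesin that builds cilia, flanks the locus on the Il4 side. In the thymus, mature medullary epithelial cells transcribe many genes of other tissues, a large share of them under the control of the nuclear protein Aire, and present the products to developing T cells.

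The files place the 5 genes on chromosome 11 of build mm10 in the order Kif3a, Il4, Il13, Rad50 and Il5. Kif3a spans chr11:53567379-53604244 on the plus strand, and Il4 spans chr11:53612461-53618665 on the minus strand. Il13 lies at chr11:53631323-53634702 and Rad50 at chr11:53649519-53707319, both on the minus strand. Il5 lies at chr11:53720794-53725103 on the plus strand, so Il4 and Il13 are read away from it. The gaps between neighbouring members, in the same order, are 8.22, 12.7, 14.8 and 13.5 kb. The promoters of the 3 cytokine genes are shown because Il4 and Il13 were higher in KO mTEChi than in WT mTEChi while Il5 was lower. They are from RefSeq, GRCm38.p6 (the same assembly as mm10), and run 5' to 3' on the strand of the gene, 300 bases each, at chr11:53618616-53618915 for Il4, chr11:53634653-53634952 for Il13 and chr11:53720544-53720843 for Il5. Capitals mark matches on either strand to GATAA (a form of the GATA factor site), GGAAA (the core of NFAT sites) and TATAAA (the TATA box). They also mark matches to the STAT6 motif (TTC, any 4 bases, then GAA).
Il4: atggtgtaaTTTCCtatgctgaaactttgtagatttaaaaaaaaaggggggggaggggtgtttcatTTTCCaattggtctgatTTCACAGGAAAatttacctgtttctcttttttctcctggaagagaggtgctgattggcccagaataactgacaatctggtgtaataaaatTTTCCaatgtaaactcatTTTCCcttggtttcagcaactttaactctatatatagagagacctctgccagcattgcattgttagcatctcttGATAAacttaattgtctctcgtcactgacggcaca
Il13: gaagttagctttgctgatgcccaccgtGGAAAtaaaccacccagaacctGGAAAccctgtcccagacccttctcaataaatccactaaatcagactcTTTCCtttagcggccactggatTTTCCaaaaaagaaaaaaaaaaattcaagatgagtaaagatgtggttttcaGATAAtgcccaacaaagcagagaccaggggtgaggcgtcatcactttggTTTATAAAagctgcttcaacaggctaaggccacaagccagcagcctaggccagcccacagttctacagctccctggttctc
Il5: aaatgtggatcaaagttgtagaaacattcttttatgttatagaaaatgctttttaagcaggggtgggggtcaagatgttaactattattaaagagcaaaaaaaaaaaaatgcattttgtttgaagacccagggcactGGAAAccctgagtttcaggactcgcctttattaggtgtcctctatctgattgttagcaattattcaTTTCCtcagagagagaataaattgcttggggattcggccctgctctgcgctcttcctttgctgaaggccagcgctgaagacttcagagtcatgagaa
The Il4 window holds 5 matches to GGAAA, and one of them overlaps the match to the STAT6 motif. The Il13 window holds 4 matches to GGAAA, and its 2 matches to TATAAA, on opposite strands, overlap each other. The Il5 window holds 2 matches to GGAAA. A match to GATAA is found 1 time in the Il4 window and 1 time in the Il13 window. GATA factor sites of other forms were not searched for, so a window without GATAA, as that of Il5, may still hold such a site. None of the 3 windows holds TGANTCA, the AP-1 motif. Of all 32851 promoter windows of the same length, 61.3% hold GGAAA at least once and 2.65% hold it at least 4 times. GATAA is held by 25.4%, TATAAA by 13.6%, the STAT6 motif by 6.95% and TGANTCA by 7.81%. Of the other 2 members, Rad50 and Kif3a, no window is printed.

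Levels are given in RPKM, a gene's signal scaled by the authors for its length and for the depth of the library. Depth ran from 4.54 to 18.1 Gb (gigabases) aligned to genes per library. The tables give bases and not reads, so the number of reads behind a level is unknown, and levels well under 1 RPKM are the least precise. Aire RNA averaged 1070 ± 64.5 RPKM in KO mTEChi and 677 ± 17.9 RPKM in WT mTEChi (SD, n = 3 each). The values are summed over the whole gene, so a deletion of part of it would not show, and Aire RNA is no check of the genotype labels. The cortical marker Psmb11 averaged 13.9 RPKM in KO cTEC and 17.8 RPKM in WT cTEC, against 0.727 to 1.84 RPKM in the 4 medullary groups. The epithelial marker Epcam averaged 142 to 320 RPKM in the 6 groups. In bulk samples such as these, fewer cells of a type and less RNA per cell cannot be told apart.

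Il13 had the highest mean of the 5 members in KO mTEChi, WT mTEChi and KO cTEC, and Rad50 had it in the other 3 groups. In mTEChi Il13 stood at 365, 380 and 354 RPKM in the 3 KO mTEChi libraries, against 96.2, 115 and 78.3 RPKM in the 3 WT mTEChi libraries. Every KO mTEChi library was above every WT mTEChi library. The means were 366 ± 13.5 RPKM in KO mTEChi and 96.5 ± 18.3 RPKM in WT mTEChi (SD, n = 3 each), a ratio of 3.80. By mean RPKM Il13 ranked 74 of 23063 genes in KO mTEChi and 393 in WT mTEChi. Genes whose KO mTEChi libraries were all above the WT mTEChi libraries made up 14.1% of the 19451 genes that passed a filter of 0.1 RPKM in at least 3 libraries, and 60.1% were in the opposite case. All 5 members passed that filter.

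Il4, the cytokine that directs T helper cells to the type 2 fate, was lower than Il13 in each library. It stood at 19.4, 21.2 and 17.1 RPKM in KO mTEChi, against 3.80, 3.26 and 3.39 RPKM in WT mTEChi. The groups again did not overlap. The means were 19.2 ± 2.02 RPKM in KO mTEChi and 3.48 ± 0.283 RPKM in WT mTEChi, a ratio of 5.53 (8.02 after scaling each library to the same median, and 8.27 after quantile normalization). Il13 exceeded Il4 by 18.8, 18 and 20.6 times in the KO mTEChi libraries, and by 25.3, 35.3 and 23.1 times in the WT mTEChi libraries.

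Il5, the eosinophil growth and survival factor, went the other way. It stood at 1.0, 1.11 and 1.07 RPKM in KO mTEChi, against 10.0, 10.1 and 7.54 RPKM in WT mTEChi. Every KO mTEChi library was below every WT mTEChi library. The means were 1.06 ± 0.0526 RPKM in KO mTEChi and 9.23 ± 1.47 RPKM in WT mTEChi, a ratio of 0.115. Il13 exceeded Il5 by 364, 344 and 331 times in the KO mTEChi libraries, and by 9.6, 11.3 and 10.4 times in the WT mTEChi libraries.

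Rad50 stood at 66.0, 65.4 and 61.4 RPKM in KO mTEChi, against 24.2, 23.5 and 23.4 RPKM in WT mTEChi, with no overlap. Its means were 64.3 ± 2.53 RPKM in KO mTEChi and 23.7 ± 0.407 RPKM in WT mTEChi, a ratio of 2.71. Rad50, which lies between Il13 and Il5, was thus higher in KO mTEChi as Il13 was, and not lower as Il5 was. Kif3a stood between 7.11 and 9.53 RPKM in every one of the 18 libraries. Its means were 7.57 ± 0.433 RPKM in KO mTEChi and 8.14 ± 0.721 RPKM in WT mTEChi with overlapping libraries, a ratio of 0.93 that became 1.35 after median scaling and 1.14 after quantile normalization. The directions of Il4, Il13, Il5 and Rad50 were the same under both scalings.

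**Figure D1:**
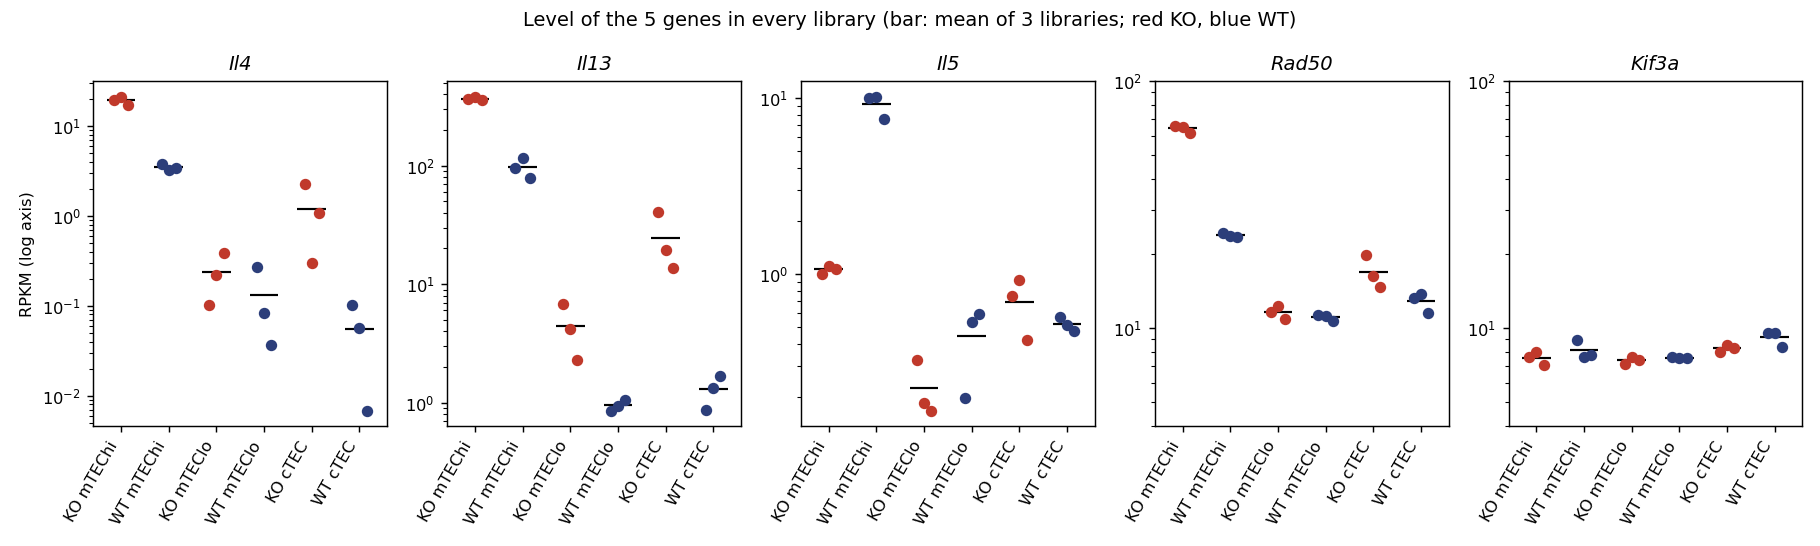
RPKM of Il4, Il13, Il5, Rad50 and Kif3a (1 panel each, log axis) in the 18 libraries, with 1 point for each library, a bar for the mean of the 3 libraries, red for KO and blue for WT. In mTEChi the KO points of Il4, Il13 and Rad50 lie above the WT points and those of Il5 below them, while Kif3a lies between 7.11 and 9.53 RPKM throughout.

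Among the 15172 genes with a mean of at least 1 RPKM in KO or WT mTEChi, 23 had a larger ratio of KO over WT than Il4, 64 a larger one than Il13 and 157 a larger one than Rad50. The ratio of Il5 was smaller than that of most of these genes, with 1053 genes below it. The median log2 ratio of all of them was -0.29, so most genes were lower in KO mTEChi than in WT mTEChi.

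In mTEClo the members were low except Rad50 and Kif3a. Il13 stood at 6.82, 4.22 and 2.31 RPKM in KO mTEClo, against 0.859, 0.937 and 1.05 RPKM in WT mTEClo, with no overlap and a ratio of means of 4.68. Il4 stood at 0.103, 0.222 and 0.383 RPKM in KO mTEClo, against 0.272, 0.083 and 0.0368 RPKM in WT mTEClo, and the groups overlapped. Il5 stood at 0.325, 0.185 and 0.167 RPKM in KO mTEClo, against 0.198, 0.53 and 0.594 RPKM in WT mTEClo, and overlapped too. Of the 3 cytokine genes Il13 was therefore the one whose mTEClo libraries were separated by genotype. Rad50 averaged 11.6 ± 0.692 RPKM in KO mTEClo and 11.1 ± 0.337 RPKM in WT mTEClo with overlapping libraries, a ratio of 1.05. Genes whose KO mTEClo libraries were all above the WT ones made up 17.2% of those that passed the filter, and 22.6% were in the opposite case.

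In cTEC, Il13 stood at 40.8, 19.5 and 13.7 RPKM in the KO libraries, against 0.861, 1.34 and 1.69 RPKM in the WT libraries. Il4 stood at 2.24, 0.296 and 1.07 RPKM in KO cTEC, against 0.101, 0.0568 and 0.00681 RPKM in WT cTEC. Neither gene's groups overlapped, and the ratios of means were 19.0 for Il13 and 21.9 for Il4 (14.3 for Il13 and 7.2 for Il4 after quantile normalization). KO cTEC library 1 was the highest for both genes, and without it the ratios were 12.8 for Il13 and 12.5 for Il4. The ratio for Il4 also depended on the low WT cTEC values and was 37.9 without WT cTEC library 1. Rad50 stood at 19.7, 16.2 and 14.7 RPKM in KO cTEC, against 13.2, 13.8 and 11.5 RPKM in WT cTEC, with no overlap and a ratio of 1.32. Il5 averaged 0.695 ± 0.255 RPKM in KO cTEC and 0.517 ± 0.0453 RPKM in WT cTEC with overlapping libraries. Genes whose KO cTEC libraries were all above the WT ones made up 15.2% of those that passed the filter, and 11% were in the opposite case.

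Markers of mature medullary cells were higher in KO cTEC than in WT cTEC, as Il13 and Il4 were. Aire stood at 95.6, 35.9 and 27.0 RPKM in KO cTEC, against 2.09, 3.95 and 7.39 RPKM in WT cTEC. Over the list of 7 mature mTEC markers, 4 were higher in KO cTEC than in WT cTEC at an adjusted p under 0.05 in limma (the test is described with the pathway genes; none in a fit of the cTEC libraries alone), beside 13.3% of all tested genes, and the summed level was 2110 to 2270 RPKM in KO cTEC and 1980 to 2070 RPKM in WT cTEC, most of it H2-Aa. No marker of the list was at 0 in every library of a group. As a share of the KO mTEChi mean, Il13 was 11.1%, 5.31% and 3.73% in the 3 KO cTEC libraries, and Aire was 8.91%, 3.34% and 2.52%. Cd80, a costimulatory ligand of mature medullary cells, was 21.1%, 8.72% and 6.08%. All 3 genes ranked the KO cTEC libraries in the same order. In KO mTEClo, Aire stood at 33.1, 21.5 and 16.3 RPKM, against 7.75, 9.13 and 12.8 RPKM in WT mTEClo. The list as a whole was not higher there. Of its 7 markers 0 were called in mTEClo, beside 7.93% of all tested genes higher and 8.04% lower. The log2 fold change was below 0 for 4 of the 7. Their summed level was 1280 to 1500 RPKM in KO mTEClo and 1740 to 1990 RPKM in WT mTEClo, most of it H2-Aa. The order of the 3 libraries by Il13 was their order by Aire in 4 of the 6 groups, namely the KO and WT groups of mTEClo and of cTEC. The order by Il4 did not follow Aire in these 4 groups. It was the reverse of the order by Aire in KO mTEClo, WT mTEClo and WT cTEC. In KO cTEC library 2 was the lowest for Il4 and library 3 for Aire. Il4 was at or below 0.383 RPKM in every library of KO mTEClo, WT mTEClo and WT cTEC. Its order in these groups, and its ratio to Aire in WT cTEC, are therefore imprecise. The ratio of Il4 to Aire was 0.0235, 0.00824 and 0.0398 in KO cTEC, against 0.0486, 0.0144 and 0.000922 in WT cTEC, and the groups overlapped. The part of mature medullary cells in the cTEC and mTEClo values of Il13 and Il4 was not tested.

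The ratio of Il13 to Aire was 0.324, 0.38 and 0.324 in KO mTEChi, against 0.146, 0.169 and 0.113 in WT mTEChi. It was 0.206, 0.196 and 0.142 in KO mTEClo, against 0.111, 0.103 and 0.0822 in WT mTEClo. In both medullary populations every KO library was above every WT library in this ratio. Aire is the targeted gene and its own RNA differed between KO and WT, so the ratio does not measure Il13 per mature cell. The share of all genes with a ratio to Aire separated in this way was not counted. In cTEC the ratio was 0.426, 0.542 and 0.506 in KO libraries and 0.412, 0.339 and 0.228 in WT libraries, with no overlap but with the nearest KO and WT values close to each other.

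**Figure D2:**
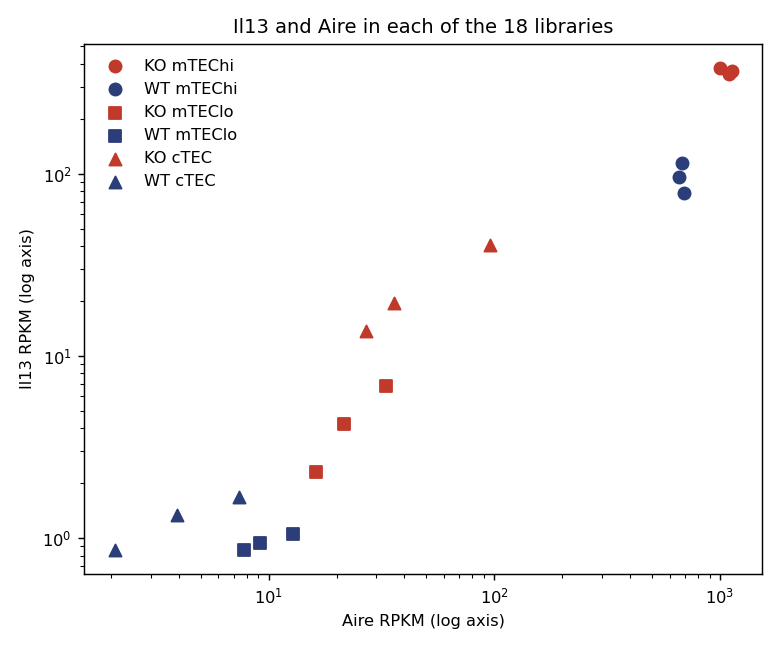
Il13 against Aire in RPKM, both axes log, with 1 point for each of the 18 libraries (red KO, blue WT, circles mTEChi, squares mTEClo, triangles cTEC). Within mTEClo and within cTEC the library with more Aire had more Il13, and KO mTEChi, with the most of both, stood at 354 RPKM or more of Il13.

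Between the hi and lo gates, Il13 was 82.4 times as high in KO mTEChi as in KO mTEClo, and 102 times as high in WT mTEChi as in WT mTEClo. The same ratio for Il4 was 81.6 in KO and 26.7 in WT (64 in KO and 12.5 in WT after quantile normalization). For Il5 it was 4.69 in KO and 20.9 in WT. For Rad50 it was 5.56 in KO and 2.14 in WT, and for Kif3a 1.02 in KO and 1.07 in WT. For Il13, Il4, Il5 and Rad50 every mTEChi library was above every mTEClo library of its genotype, as was so for 26.7% of the genes that passed the filter in KO and 44.1% in WT, with 47.8% and 34.4% in the opposite case. The levels of Il13, from the highest mean, were ordered KO mTEChi, WT mTEChi, KO cTEC, KO mTEClo, WT cTEC and WT mTEClo, and only the last pair of neighbours in that order overlapped. Il4 had the same first 3 groups, and its neighbours from KO cTEC down (KO mTEClo, WT mTEClo and WT cTEC) overlapped. For Il5 the order began with WT mTEChi, then KO mTEChi, and the 4 groups below overlapped with their neighbours. Between mTEChi and cTEC, all mTEChi libraries were above all cTEC libraries for 27.1% of the genes that passed the filter in KO and 47.4% in WT, and below them for 41% in KO and 32.8% in WT. Between mTEClo and cTEC, all mTEClo libraries were above all cTEC libraries for 22% of these genes in KO and 29.3% in WT, and below them for 18.7% in KO and 23.2% in WT.

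Of the genes outside the locus, those whose pattern over the 6 groups was most like that of Il13 were Marc1, Ripply2, Il12a, Slit1 and Cacng8. Likeness was the root mean square of the differences between 2 genes' log2 levels over the 6 group means, each gene centred on its own mean, among 14720 genes with a mean of at least 1 RPKM in their highest group (gene models, small RNAs and receptor segments left out), and it was 0.39 for Marc1 and 0.67 for Cacng8. Marc1 averaged 121 RPKM in KO mTEChi and 49.7 RPKM in WT mTEChi. Il12a, which encodes a subunit of interleukin-12, averaged 95.5 RPKM in KO mTEChi and 32.3 RPKM in WT mTEChi. For Il4 the 5 nearest genes were Btnl1, Ttll9, Adcy1, Olfr1136 and Cacna1s, with values of 0.29 to 0.31. Il4 ranked 20 among the genes most like Il13, and Il13 ranked 142 among those most like Il4. The 5 genes most like Il5 were Clec1b, G6pc, Adcyap1r1, Ido1 and Hoxb9, with values of 0.23 to 0.30. Ido1, which encodes a tryptophan-degrading enzyme, averaged 0.715 RPKM in KO mTEChi and 5.76 RPKM in WT mTEChi. Among the genes most like Il5, Il4 ranked 12705 and Il13 ranked 14043.

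Cells known for making these cytokines were looked for by their markers in mTEChi. The counts that follow stand beside 52.8% of all tested genes that fell and 9.57% that rose in KO mTEChi (24.7% and 31.2% after quantile normalization, 28.7% and 36.5% after median centring). The summed level of 10 T cell and thymocyte markers was 17.2 to 30.2 RPKM in KO mTEChi and 41.7 to 70.1 RPKM in WT mTEChi, and 5 of the 10 fell in KO (1 of the 10 after quantile normalization or median centring). The T cell receptor signalling gene Cd3e, a defining T cell marker, averaged 1.28 RPKM in KO mTEChi and 2.43 RPKM in WT mTEChi. Of 8 mast cell and basophil markers 7 fell in KO mTEChi (6 after quantile normalization), with Cma1, Mcpt4 and Mcpt8 listed at 0 in all 3 KO libraries. The summed level of the list was 34.3 to 37.7 RPKM in KO mTEChi and 44.6 to 58.7 RPKM in WT mTEChi. The stem cell factor receptor Kit was the one that rose, with a mean of 35.3 RPKM in KO mTEChi and 20.4 RPKM in WT mTEChi. Of 5 eosinophil markers 4 fell in KO mTEChi (3 after either of the other scalings), and the summed level, most of it Prg2, was 109 to 127 RPKM in KO mTEChi and 75.5 to 102 RPKM in WT mTEChi. Of 6 markers of innate lymphoid type 2 and NKT cells 1 rose in KO mTEChi, Zbtb16, the transcription factor of NKT cells (3 of the 6 were called higher after quantile normalization and 2 after median centring), and none of the 6 was at 0 in all libraries of a group. Their summed level was 38.0 to 41.7 RPKM in KO mTEChi and 29.6 to 33.9 RPKM in WT mTEChi, most of it Tbx21. Tbx21 is not a marker of innate lymphoid type 2 cells, so this sum is no measure of them. The part of such cells in the mTEChi levels of the cytokine genes was not tested.

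The 18 genes that lie within 500 kb of the locus were tested, as they were not used to choose the members. In KO mTEChi against WT mTEChi, 1 of them rose and 9 fell, and their ratios of KO over WT ran from 0.179 to 1.55 with a median of 0.825. The ratios of Il4, Il13 and Rad50 lay above that range and the ratio of Il5 below it. As the members were chosen by their levels, their place outside the range is a description and no test. The lowest ratio was that of Gm11186, with means of 0.0342 RPKM in KO mTEChi and 0.191 RPKM in WT mTEChi, and is imprecise. The neighbour that rose was Gm12216, on the far side of Il5, with 3.55, 3.49 and 3.46 RPKM in KO mTEChi, against 1.79, 3.17 and 1.83 RPKM in WT mTEChi. Its log2 fold change was 0.66 ± 0.21 (SE, n = 3 each, adjusted p = 0.011, limma). The call was lost without WT mTEChi library 1 or 3. Among those that fell, Sowaha averaged 0.958 ± 0.0498 RPKM in KO mTEChi and 2.29 ± 0.277 RPKM in WT mTEChi (SD, n = 3 each). Hspa4, which encodes a heat shock protein, averaged 31.7 ± 2.25 RPKM in KO mTEChi and 41.6 ± 2.29 RPKM in WT mTEChi. Irf1, the interferon regulatory factor next to Il5, averaged 69.8 ± 1.3 RPKM in KO mTEChi and 60.9 ± 3.72 RPKM in WT mTEChi and was not called. In mTEChi 52.8% of all tested genes fell in KO and 9.57% rose, and the median log2 fold change was -0.39 over all tested genes and -0.275 over the 18 neighbours. After median centring 10 of the 18 neighbours were called higher and 3 lower, and after quantile normalization 6 higher and 1 lower, and the shares of all tested genes turned too, so the directions of the neighbours depended on the scaling.

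In KO mTEClo against WT mTEClo, 3 of the 18 neighbours rose, Sowaha, Sept8 and Irf1, against 7.93% of all tested genes that rose and 8.04% that fell. Irf1 stood at 111, 115 and 135 RPKM in KO mTEClo, against 86.4, 66.1 and 81.1 RPKM in WT mTEClo. The count was 1 without KO mTEClo library 2, without KO mTEClo library 3 or without WT mTEClo library 3. In KO cTEC against WT cTEC, Sowaha, Sept8 and Pdlim4 rose and Gm12216 fell, against 13.3% of all tested genes that rose and 6.76% that fell. In a fit of the 6 cTEC libraries alone limma called none of the 18, with 5 at an unadjusted p under 0.05, and it called 18 of all 19451 genes.

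**Figure D3:**
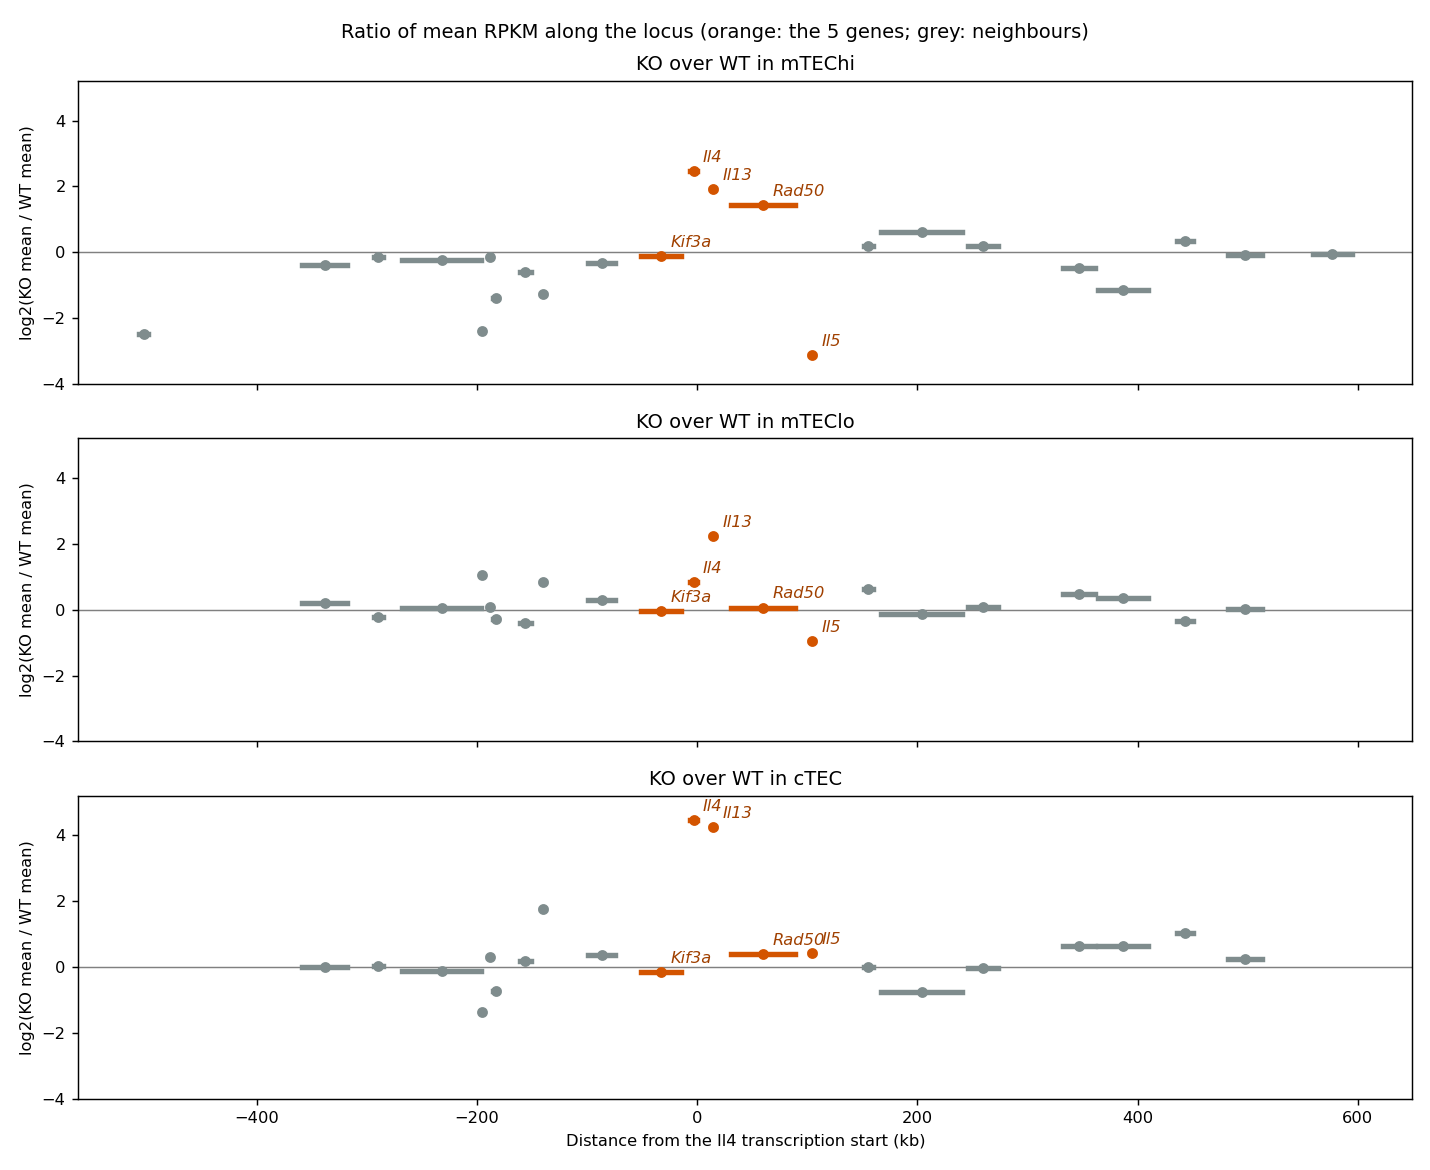
Log2 of the ratio of mean RPKM, KO over WT, against distance from the Il4 transcription start in kb, for the 5 members (orange) and the neighbours within 500 kb (grey) in mTEChi, mTEClo and cTEC, with a line over the length of each gene; neighbours with a mean of 0 in a group, or under 0.1 RPKM in both, have no ratio and are not drawn. In mTEChi, Il4, Il13 and Rad50 lie above the neighbours, whose highest ratio was 1.55, and Il5 below them, and in cTEC Il4 and Il13 lie above them.

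The 54 other genes of the pathway were tested as 4 lists with limma on log2(RPKM + 0.1), with p-values adjusted over all 19451 tested genes. All 54 passed the filter. In KO mTEChi against WT mTEChi, 6 rose and 26 fell, beside 9.57% of all tested genes that rose and 52.8% that fell, with a median log2 fold change of -0.51 over the 54 and of -0.39 over all tested genes. After quantile normalization 13 were called higher and 20 lower, and after median centring 21 higher and 20 lower, beside 31.2% higher and 24.7% lower, and 36.5% higher and 28.7% lower, of all tested genes under the same scalings, while the median of all tested genes moved to 0.08 and 0.13.

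Of the 7 other type 2 and alarmin cytokines, 5 fell in KO mTEChi, beside 52.8% of all tested genes, and 4 of the 7 were called lower under each of the other scalings, beside 24.7% (quantile normalization) and 28.7% (median centring) of all tested genes. Il9, a mast cell growth factor, was listed at 0, 0.00594 and 0.0307 RPKM in KO mTEChi, against 10.9, 6.54 and 8.03 RPKM in WT mTEChi. Its level in KO mTEChi was thus near 0 in each library, and the fold change, -6.24 ± 0.27 on the log2(RPKM + 0.1) scale (SE, adjusted p = 2.1e-11), depends on the added 0.1. Il31, the itch cytokine of T helper cells, averaged 0.00262 RPKM in KO mTEChi and 3.70 ± 0.813 RPKM in WT mTEChi. Il33, the epithelial alarmin that activates innate lymphoid cells, stood at 0.152, 0.234 and 0.184 RPKM in KO mTEChi, against 3.08, 2.66 and 2.96 RPKM in WT mTEChi. Its log2 fold change was -3.38 ± 0.20 (SE, adjusted p = 7.8e-10). Tslp, an alarmin that acts on dendritic cells, stood at 1.54, 0.74 and 0.702 RPKM in KO mTEChi, against 5.51, 6.69 and 5.05 RPKM in WT mTEChi (log2 fold change -2.49 ± 0.38, adjusted p = 2.9e-05). Il25, the cytokine of tuft cells, averaged 4.42 ± 1.2 RPKM in KO mTEChi and 3.77 ± 1.49 RPKM in WT mTEChi and was not called, except as higher after quantile normalization. None of the 7 averaged above 4.90 RPKM in KO mTEChi, below Il13 and Il4 in that group.

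Of the 12 receptor genes, 1 rose and 2 fell in KO mTEChi, and 9 were not called, beside 9.57% higher and 52.8% lower of all tested genes. The balance turned with the scaling, to 4 higher and 1 lower after quantile normalization and 5 higher and 2 lower after median centring. A fit of the mTEChi libraries alone called 3 of the 12 higher and 7 lower, beside 12.8% and 57.6% of all tested genes. Il2rg, not called in the fit of all libraries, stood at 186, 194 and 191 RPKM in KO mTEChi, against 108, 113 and 102 RPKM in WT mTEChi. Il2rg was named here after its values were seen. Il4ra, the chain that IL-4 and IL-13 share, stood at 79.3, 79.3 and 78.1 RPKM in KO mTEChi, against 58.5, 57.8 and 56.8 RPKM in WT mTEChi. It rose by 0.45 ± 0.08 on the log2 scale (SE, adjusted p = 0.00021). Il13ra1, the partner chain through which epithelial cells bind IL-13, averaged 35.1 ± 1.7 RPKM in KO mTEChi and 35.7 ± 2.81 RPKM in WT mTEChi and was not called. Its log2 fold change was above 0 under both other scalings, 0.03 after quantile normalization and 0.50 after median centring. Il5ra, the receptor chain of IL-5, stood at 0.963, 1.32 and 0.847 RPKM in KO mTEChi, against 4.63, 5.18 and 5.54 RPKM in WT mTEChi. It fell in KO mTEChi, with a log2 fold change of -2.21 ± 0.32 (SE, adjusted p = 1.7e-05). Il1rap, the coreceptor for IL-33, averaged 1.69 ± 0.165 RPKM in KO mTEChi and 3.27 ± 0.282 RPKM in WT mTEChi (log2 fold change -0.91 ± 0.11, adjusted p = 3.9e-06). The call of Il1rap did not hold under quantile normalization.

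Of the 19 signalling and transcription factor genes, 5 rose and 3 fell in KO mTEChi, beside the same shares of all tested genes. After quantile normalization 8 were called higher and 1 lower, and after median centring 16 higher and 0 lower (16 with an unadjusted p under 0.05). Stat5b, which transmits signals of several cytokine receptors, stood at 41.3, 40.4 and 41.3 RPKM in KO mTEChi, against 17.8, 19.4 and 18.5 RPKM in WT mTEChi (log2 fold change 1.14 ± 0.08, SE, adjusted p = 1.1e-08). Nfatc2, an NFAT factor that acts on cytokine promoters in T cells, stood at 27.7, 26.0 and 28.5 RPKM in KO mTEChi, against 12.1, 13.2 and 13.6 RPKM in WT mTEChi (log2 fold change 1.07 ± 0.21, adjusted p = 0.00034). Stat5a and Socs1, a feedback inhibitor of cytokine signalling, rose as well, by 0.62 ± 0.17 and 0.70 ± 0.19 (adjusted p = 0.0048 and 0.0037). Gata3, the factor that activates the locus in T helper cells, was low and fell. It stood at 2.64, 2.51 and 2.47 RPKM in KO mTEChi, against 4.31, 4.17 and 4.72 RPKM in WT mTEChi (log2 fold change -0.765 ± 0.135, adjusted p = 0.00013). The fall of Gata3 was not called after quantile normalization or median centring. Stat6, which carries IL-4 and IL-13 signals, averaged 30.6 ± 0.668 RPKM in KO mTEChi and 34.7 ± 0.301 RPKM in WT mTEChi, a fall (-0.18 ± 0.05, adjusted p = 0.0049) that turned into a rise of 0.34 after median centring. Socs3 fell by 0.55 with an adjusted p of 0.038, and the call was lost in 6 of the alternatives tried.

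All 16 genes known to be induced by IL-4 or IL-13 in other tissues fell in KO mTEChi, and 14 of the 16 were called lower under each of the other scalings, beside 24.7% and 28.7% of all tested genes. The median log2 fold change of the 16 was -1.63, beside -0.39 over all tested genes and 52.8% of all tested genes called lower. Muc5ac, the airway mucin that IL-13 induces in goblet cells, stood at 0.0433, 0.046 and 0.0234 RPKM in KO mTEChi, against 7.46, 9.78 and 8.25 RPKM in WT mTEChi. Retnla, made by alternatively activated macrophages, stood at 1.3, 0.355 and 0.0584 RPKM in KO mTEChi, against 39.0, 40.5 and 26.2 RPKM in WT mTEChi. Retnlb, a goblet cell product, was listed at 0 in all 3 KO mTEChi libraries and stood at 6.23, 4.24 and 4.42 RPKM in WT mTEChi. Clca3, a goblet cell gene of the airways, averaged 3.01 ± 0.471 RPKM in KO mTEChi and 17.0 ± 1.25 RPKM in WT mTEChi (log2 fold change -2.47 ± 0.46, SE, adjusted p = 0.00021). These genes were thus lower in KO mTEChi than in WT mTEChi, while Il4 and Il13 were higher. In mTEChi each of the 4 named stayed called under all the alternatives tried. In cTEC, where Il4 and Il13 were also higher in KO, 10 of the 16 were called higher and 0 lower. The shares of all tested genes there were 13.3% and 6.76%. A fit of the cTEC libraries alone called 1 of the 16 higher and 0 lower. Whether these genes follow Il4 and Il13 was not tested.

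In KO mTEClo against WT mTEClo, 12 of the 54 pathway genes rose and 3 fell, beside 7.93% of all tested genes that rose and 8.04% that fell. Without WT mTEClo library 3 the count was 8 higher and 1 lower. The cytokines Il25, Tslp and Il33 rose. Il25 stood at 51.6, 68.2 and 53.7 RPKM in KO mTEClo, against 16, 25.4 and 14.3 RPKM in WT mTEClo (log2 fold change 1.67 ± 0.37, SE, adjusted p = 0.0066). Il33 stood at 5.71, 5.96 and 6.95 RPKM in KO mTEClo, against 3.39, 3.54 and 3.37 RPKM in WT mTEClo. Tslp averaged 5.67 ± 1.33 RPKM in KO mTEClo and 1.83 ± 0.492 RPKM in WT mTEClo, a call lost without WT mTEClo library 3. The receptors Il1rl1, Il5ra and Il2rg rose. Il1rl1, which encodes the receptor of IL-33, stood at 2.71, 3.22 and 3.41 RPKM in KO mTEClo, against 0.339, 0.368 and 0.129 RPKM in WT mTEClo (log2 fold change 3.15 ± 0.33, adjusted p = 5.8e-05). The call of Il2rg, the common gamma chain, was lost without KO mTEClo library 1 or 2 or WT mTEClo library 1 or 3, and that of Il5ra without KO mTEClo library 1. Of the signalling genes Batf and Nfatc1 rose and Maf and Jak3 fell. The call of Nfatc1 was lost in 6 alternatives, and those of Maf and Jak3 without WT mTEClo library 3. Of the genes induced by IL-4 or IL-13, Chi3l3, Chi3l4, Chia and Mrc1 rose. The call of Mrc1 was lost in 5 alternatives and that of Chia without WT mTEClo library 1. The chitinase-like gene Chi3l3 stood at 226, 257 and 272 RPKM in KO mTEClo, against 33.5, 24.8 and 25.2 RPKM in WT mTEClo (log2 fold change 3.18 ± 0.24, adjusted p = 2.5e-06). Chi3l4 averaged 293 ± 47.1 RPKM in KO mTEClo and 32.1 ± 3.31 RPKM in WT mTEClo. Muc5ac fell in KO mTEClo too, with a mean of 0.0584 RPKM in KO mTEClo and 0.822 RPKM in WT mTEClo. The summed level of 7 tuft cell markers, Il25 among them, was 1000 to 1070 RPKM in KO mTEClo and 322 to 708 RPKM in WT mTEClo, and its part in these differences was not tested.

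**Figure D4:**
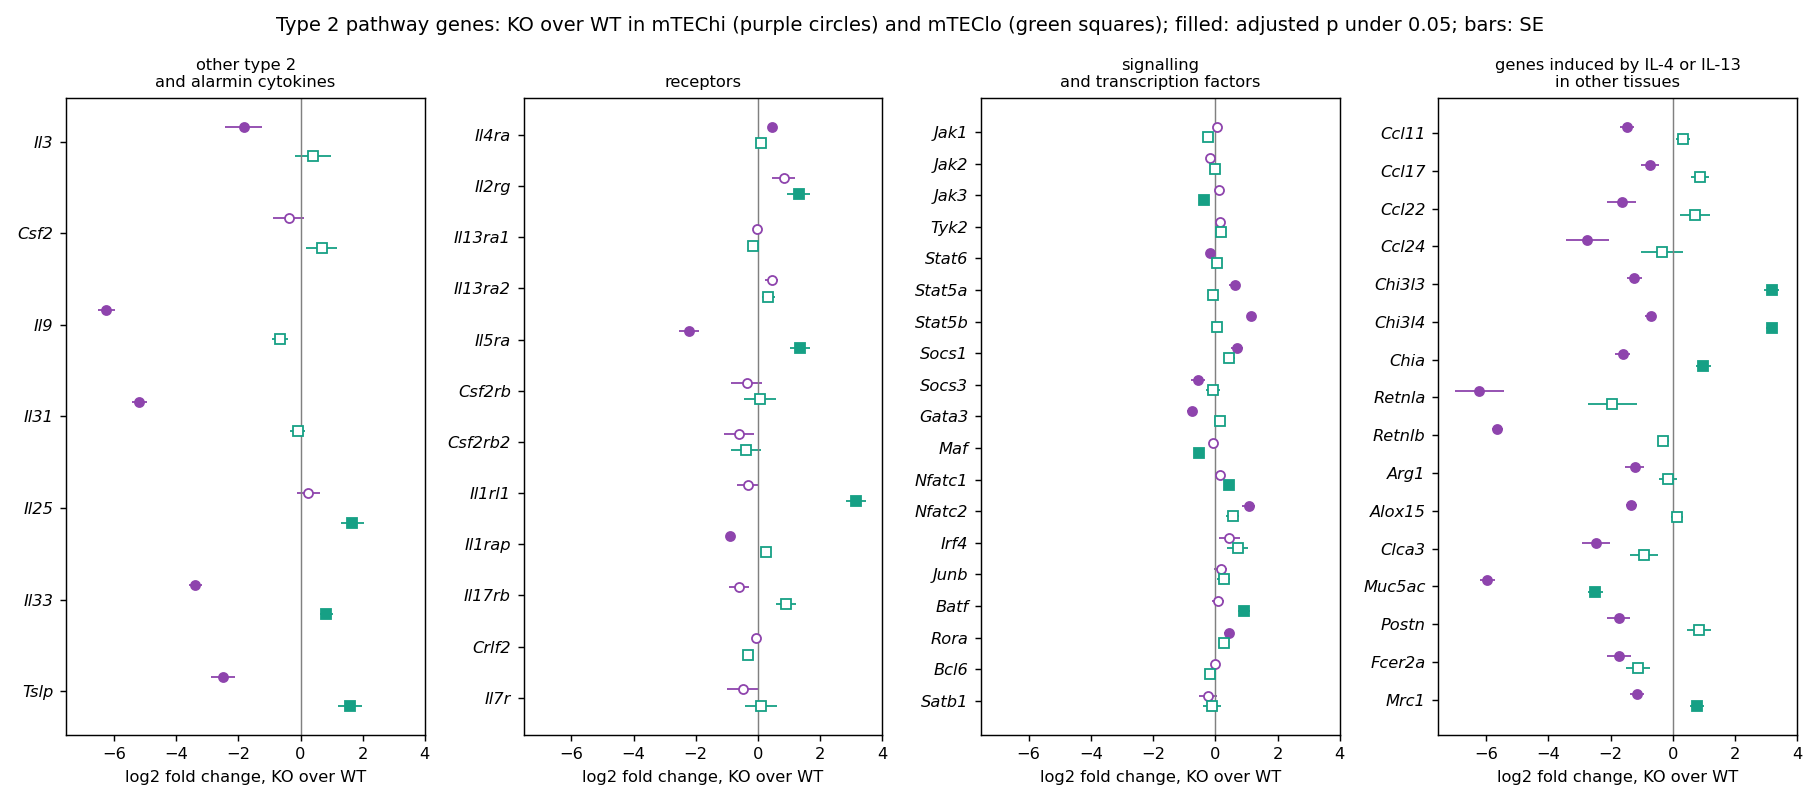
Log2 fold change on the RPKM + 0.1 scale, KO over WT, of the 54 pathway genes in mTEChi (purple circles) and mTEClo (green squares), with bars for the SE and filled symbols for an adjusted p under 0.05. All 16 genes induced by IL-4 or IL-13 lie left of 0 in mTEChi, while Chi3l3 and Chi3l4 lie at 3.18 in mTEClo.

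The difference between the genotype effects in mTEChi and mTEClo was tested for each gene. It was called for 30 of the 54 pathway genes, 26 of them with a lower effect in mTEChi and 4 with a higher one, beside 40.9% and 6.01% of all tested genes. After quantile normalization 19 had a lower effect and 6 a higher one, beside 18.3% and 23.4% of all tested genes, and after median centring 19 and 15, beside 22.6% and 29.2%. For Chi3l3 the effect was 4.42 ± 0.34 log2 units lower in mTEChi than in mTEClo (SE, adjusted p = 4.6e-08). For Stat5b it was 1.09 ± 0.12 log2 units higher in mTEChi (adjusted p = 2.3e-06).

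In KO cTEC against WT cTEC, 21 of the 54 pathway genes rose and 4 fell, beside 13.3% of all tested genes that rose and 6.76% that fell. In a fit of the 6 cTEC libraries alone limma called 1 of the 54, with 25 at an unadjusted p under 0.05. The one gene called in that fit was Chi3l4, which stood at 190, 196 and 154 RPKM in KO cTEC, against 12.6, 9.47 and 9.83 RPKM in WT cTEC (log2 fold change 4.07 ± 0.18 in the fit of all libraries, SE, adjusted p = 5.5e-09). Of the cytokines Il25, Tslp and Csf2 rose and Il33 fell in the fit of all libraries. Il25 stood at 33.7, 15.4 and 19.2 RPKM in KO cTEC, against 1.41, 4.02 and 2.05 RPKM in WT cTEC. Il33 was high in this population, with 26.5, 38.3 and 59.7 RPKM in KO cTEC, against 70.3, 66.5 and 73.8 RPKM in WT cTEC. Nfatc2 averaged 4.11 ± 1.78 RPKM in KO cTEC and 0.735 ± 0.164 RPKM in WT cTEC, and Il1rl1 1.96 ± 1.28 RPKM in KO cTEC and 0.0614 ± 0.012 RPKM in WT cTEC. Il17rb, the receptor of IL-25, averaged 21.4 ± 10.1 RPKM in KO cTEC and 5.37 ± 2.56 RPKM in WT cTEC. All 7 tuft cell markers in the tables rose in KO cTEC (none in the fit of the cTEC libraries alone, all 7 with an unadjusted p under 0.05), beside 13.3% of all tested genes, with a summed level of 241 to 564 RPKM in KO cTEC and 35.1 to 99.9 RPKM in WT cTEC. The part of tuft cells and mature medullary cells in the cTEC values was not tested.

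Between the 2 medullary gates, 29 of the 54 pathway genes were called higher and 12 lower in WT mTEChi than in WT mTEClo, beside 41.6% and 31.1% of all tested genes (29.6% and 39.3% after quantile normalization, with 26 and 12 of the 54). In KO, 17 were called higher and 21 lower in mTEChi than in mTEClo, beside 23.4% and 43.7% (38.1% and 27% after median centring, with 21 and 14 of the 54). Il33 averaged 0.19 ± 0.041 RPKM in KO mTEChi and 6.2 ± 0.654 RPKM in KO mTEClo, and it averaged 2.9 ± 0.213 RPKM in WT mTEChi and 3.43 ± 0.0957 RPKM in WT mTEClo. Nfatc2 was higher in the hi gate in both genotypes, with 27.4 ± 1.28 RPKM in KO mTEChi against 6.06 ± 0.408 RPKM in KO mTEClo, and 13.0 ± 0.764 RPKM in WT mTEChi against 4.1 ± 0.606 RPKM in WT mTEClo. Irf4, a factor that acts with NFAT on cytokine genes in T cells, averaged 37.1 ± 1.93 RPKM in KO mTEChi against 5.49 ± 0.731 RPKM in KO mTEClo, and 27.3 ± 0.614 RPKM in WT mTEChi against 3.27 ± 0.188 RPKM in WT mTEClo. Irf4 was named after its values were seen. Il13ra1 ran the other way, with 35.1 ± 1.7 RPKM in KO mTEChi against 80.9 ± 5.8 RPKM in KO mTEClo, and 35.7 ± 2.81 RPKM in WT mTEChi against 89.9 ± 3.15 RPKM in WT mTEClo. Between WT mTEChi and WT cTEC 32 of the 54 were called higher and 11 lower, beside 46.6% and 31.8% of all tested genes (32.6% and 42.8% after quantile normalization, with 32 and 12 of the 54).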

How the data were processed

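RNA from 18 libraries of sorted thymic epithelial cells in 6 groups was analysed from the deposited table of each library, which lists 23063 genes with mm10 coordinates. The authors' deposited RPKM values were used as they stand. The deposited signal column, aligned bases per gene, served only for depth, and at 5 RPKM or more its ratio to RPKM did not vary between genes of a library. Per the submitters' processing notes the data are on mm10 and CASAVA 1.8.2 was used; neither aligner nor annotation is stated in the labels. The 19451 genes that reached 0.1 RPKM in 3 or more libraries were fitted as log2(RPKM + 0.1) with limma 3.58.1 in R 4.3.3, with a mean for each of the 6 groups, a variance trend over all 18 libraries and two-sided p-values adjusted by the Benjamini-Hochberg method over all genes tested; called means an adjusted p under 0.05. The fit was tested on simulated data. A fold change on this scale understates the change of genes near 0.1 RPKM.

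The members and all gene lists were chosen with earlier results of these data known. For each KO against WT comparison the text names called list members with a mean of at least 1 RPKM, at most the 4 largest changes for each list and direction, and the member not called with the highest level; neighbours are the genes within 500 kb. Strands are from GENCODE M21 and promoters from RefSeq, GRCm38.p6; 12 symbols stand at more than 1 place in the tables, none of them a member. The labels do not say whether the counting used strand, so reads of overlapping antisense genes could not be separated, and near-identical genes such as Chi3l3 and Chi3l4 may share reads. Alternatives changed the added constant, the filter, the scaling, the libraries in the fit and the replicate number as a block, and left out each library in turn. Python 3.11.15, numpy 2.4.6, pandas 2.3.3 and matplotlib 3.10.9 were used.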

Additional observations from a re-analysis of the deposited data

Results flagged for a closer look

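The effect of genotype was set side by side in mTEChi and mTEClo for the 47 named genes outside the locus, and for 30 of them the difference between the 2 effects passed the threshold in limma. The values below are the log2 fold change KO over WT in mTEChi minus that in mTEClo, with 3 libraries in each group. In 24 of the 30 the difference was negative and in 6 it was positive. Many of the 47 were named for a call in mTEChi or mTEClo, which favours such differences. Their count is thus no test against the shares of all tested genes that follow. Over all tested genes 40.9% had a negative difference that passed and 6.01% a positive one. That excess of negative differences turned with the scaling, to 18.3% negative and 23.4% positive after quantile normalization and 22.6% negative and 29.2% positive after median centring. Of the 30 differences, 20 passed in the same direction after quantile normalization and 22 after median centring, where those of Stat6 and Aff4 turned sign. Groups of 3 libraries are too small for a test of single outlying libraries.

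Among the cytokines the difference was -5.58 for Il9 (adjusted p = 1.4e-08) and -5.10 for Il31 (adjusted p = 1.1e-08). Both passed the filter through the WT mTEChi libraries. In KO and WT mTEClo Il9 averaged 0 and 0.0708 RPKM, and Il31 averaged 0.00811 and 0.017 RPKM. A fall in mTEClo could thus hardly show, and these 2 differences mostly repeat the falls in mTEChi. The difference was -4.21 for Il33 and -4.08 for Tslp (adjusted p = 1.1e-08 and 1.4e-05), both of which fell in KO mTEChi and rose in KO mTEClo. For Il25, which was not called in mTEChi, it was -1.41 (adjusted p = 0.035). Among the receptors it was -3.56 for Il5ra, -3.48 for Il1rl1, -1.16 for Il1rap and 0.347 for Il4ra (adjusted p = 9.5e-06, 1.7e-05, 2.5e-05 and 0.024). Il5ra was lower in KO mTEChi and higher in KO mTEClo than in the WT cells.

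Among the signalling genes the difference was positive for Stat5b at 1.09, Stat5a at 0.70 and Jak3 at 0.469 (adjusted p = 2.3e-06, 0.026 and 0.0039). It was negative for Gata3 at -0.905, Batf at -0.851 and Stat6 at -0.222 (adjusted p = 0.0011, 0.016 and 0.017). Among the genes induced by IL-4 or IL-13 all the differences that passed were negative. They were -5.34 for Retnlb, which is listed at 0 in KO mTEChi, -4.42 for Chi3l3, -4.28 for Retnla and -3.90 for Chi3l4. They were -3.46 for Muc5ac, -2.59 for Chia, -1.93 for Mrc1 and -1.82 for Ccl11. Of these 8 the adjusted p was highest for Retnla, at 0.0052. Chi3l3, Chi3l4, Chia and Mrc1 fell in KO mTEChi and rose in KO mTEClo.

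Among the neighbours of the locus the difference was -1.95 for Sowaha, -0.964 for Slc22a21, -0.615 for Sept8, -0.588 for Hspa4 and -0.284 for Aff4. It was 0.795 for Gm12216 and 0.693 for Pdlim4. Of these 7 the adjusted p ran from 7.8e-05 for Sowaha to 0.035 for Gm12216. Sowaha and Sept8 fell in KO mTEChi and rose in KO mTEClo. With these, 9 genes had opposite calls in the 2 populations at the deposited scaling. Il33, Tslp, Il5ra, Chi3l3, Chia and Mrc1 also had opposite calls after quantile normalization and after median centring. In mTEChi the calls of Sowaha and Sept8 were lost after quantile normalization, and Sept8 was called higher after median centring. The mTEClo calls of Tslp, Il5ra, Chia and Mrc1 were each lost with at least 1 library left out.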

How the results depend on the processing

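Of 76 comparisons of named genes 58 were called, 36 of these lost the call under at least 1 alternative and 6 others gained one. In a fit of the cTEC libraries alone the count of pathway genes called in cTEC was 1 (25 in the fit of all libraries) and that of neighbours 0 (4), with fewer libraries to estimate the spread. With each library left out in turn, the pathway count in mTEClo ran from 9 to 21 (15 with all) and the neighbour count in mTEClo from 1 to 4 (3 with all).

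The differences of mean RPKM of the members moved with the scaling. KO minus WT in mTEChi was 21.39 for Il4, 381.3 for Il13, 60.98 for Rad50 and 2.494 for Kif3a after median scaling, and 19.07 for Il4, 245.7 for Il13 and 1.165 for Kif3a after quantile normalization (deposited 15.76, 269.9, 40.58 and -0.5706, in the order Il4, Il13, Rad50, Kif3a). KO mTEChi minus KO mTEClo was 24.21 for Il4, 461.5 for Il13, 1.131 for Il5, 70.67 for Rad50 and 2.541 for Kif3a after median scaling, and 21.35 for Il4, 340.6 for Il13, 0.9834 for Il5 and 2.176 for Kif3a after quantile normalization. WT mTEChi minus WT mTEClo was 2.922 for Il4, 10.08 for Rad50 and -0.1949 for Kif3a after median scaling, and 2.414 for Il4 and 14.04 for Rad50 after quantile normalization. KO minus WT in cTEC was -1.751 for Kif3a after median scaling.

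Log2 fold changes that turned sign in mTEChi after median centring were those of Il13ra1 (0.501), Stat6 (0.344), Hspa4 (0.132), Zcchc10 (0.379), Aff4 (0.294), Uqcrq (0.381), Sept8 (0.204), Slc22a21 (0.0397) and P4ha2 (0.429). After quantile normalization they were those of Il13ra1 (0.0324), Junb (-0.129), Zcchc10 (0.488), Shroom1 (1.04), Slc22a21 (0.233) and P4ha2 (0.138). That of Il9 in cTEC, where the gene is near 0, was -0.138 after median centring and ran from -0.0582 to 0.0591 with a library left out. That of Il13ra1 ran from -0.0886 to 0.0208 in mTEChi and from -0.0765 to 0.0674 in cTEC with a library left out. The causes of these shifts were not tested.

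The replicate numbers did not pair the KO and WT libraries of a population. Correlations of same-numbered deviations between KO and WT ran from -0.303 to 0.00391. Of 18 libraries, 0 correlated best with the library of their own number in the other genotype. Pairing between the populations of a genotype was not examined. With the replicate number as a block the pathway counts were 32 in mTEChi, 15 in mTEClo and 24 in cTEC, and the neighbour counts 10, 3 and 5. Aligned bases and not reads are given, so the lowest levels have no counting interval.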

Other observations

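The ratio of Il13 to Il5 was higher in each KO library than in each WT library of the same population. Both genes were chosen by their levels, and the share of gene pairs separated in this way was not counted. In mTEClo and cTEC Il5 was at or below 0.922 RPKM and overlapped between KO and WT, so its ratios there are imprecise. Il13 by itself was separated by genotype in both. The ratio of Il13 to Il5 was 21.0, 22.7 and 13.8 in KO mTEClo, against 4.34, 1.77 and 1.77 in WT mTEClo. It was 54.8, 21.1 and 32.6 in KO cTEC, against 1.52, 2.61 and 3.55 in WT cTEC. The ratio of Rad50 to Kif3a was 8.65, 8.21 and 8.64 in KO mTEChi, against 2.7, 3.08 and 3.0 in WT mTEChi. It was 2.47, 1.9 and 1.77 in KO cTEC, and the WT cTEC libraries were all below these.

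Of the other cell type markers, the summed level of 6 macrophage and dendritic cell markers was 355 to 386 RPKM in KO mTEChi and 338 to 367 RPKM in WT mTEChi. It was 69.6 to 139 RPKM in KO mTEClo, against 26.8 to 34.2 RPKM in WT mTEClo, and 107 to 152 RPKM in KO cTEC, against 24.2 to 61.9 RPKM in WT cTEC. In KO mTEChi 1 of these 6 was called higher and 4 lower, beside 9.57% and 52.8% of all tested genes. The counts were 1 higher and 2 lower after quantile normalization and after median centring. The shares of all tested genes called lower were then 24.7% and 28.7%. The summed level of 7 tuft cell markers was 59.1 to 87.2 RPKM in KO mTEChi and 89.0 to 174 RPKM in WT mTEChi. That of 7 cTEC markers was 812 to 951 RPKM in KO mTEChi and 469 to 542 RPKM in WT mTEChi, and 532 to 910 RPKM in KO cTEC, against 516 to 891 RPKM in WT cTEC. In KO mTEChi 3 of these 7 were called higher and 3 lower, beside 9.57% and 52.8% of all tested genes. Their median log2 fold change was -0.202, so the higher sum does not stand for the list. The summed level of 5 markers of thymic epithelium was 952 to 1140 RPKM in KO mTEChi and 1260 to 1430 RPKM in WT mTEChi. Of the genes tested as pathway members, Il5ra is also an eosinophil marker, Il1rl1 and Il7r are markers of innate lymphoid cells, and Il25 is a tuft cell marker.

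In cTEC the summed level of the T cell markers was 33.5 to 52.0 RPKM in KO and 44.2 to 98.0 RPKM in WT. That of the innate lymphoid and NKT markers was 5.31 to 17.2 RPKM in KO cTEC and 3.03 to 7.03 RPKM in WT cTEC. That of the 8 mast cell and basophil markers was 12.9 to 28 RPKM in KO cTEC and 2.05 to 5.13 RPKM in WT cTEC. Of these, Kit rose, with a mean of 18.3 RPKM in KO cTEC and 3.19 RPKM in WT cTEC, and Cma1, Tpsab1 and Mcpt8 were listed at 0 in all 3 KO cTEC libraries. The part of such cells in the cTEC levels of Il13 and Il4 was not tested.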
